A study of Mus musculus with 2 samples.

Results

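The tumour suppressor gene *Trp53*, its inhibitors *Mdm2* and *Mdm4*, and 5 genes that p53 is known to activate (*Cdkn1a*, *Ccng1*, *Phlda3*, *Zmat3* and *Bbc3*) were followed through the cell types of mouse bone marrow. They were chosen by name, and all 8 symbols were found among the 32285 genes of both count matrices. The study asked how loss of the kinase MAP4K4 changes neutrophil differentiation, and it profiled single marrow cells from 1 control library (Ctrl) and 1 *Map4k4* conditional knockout library (cKO). In the knockout, the Cre recombinase was driven by the *Mx1* promoter, which responds to interferon in blood cells and in other tissues alike, and was switched on by poly I:C, whose injection the methods describe for the floxed Mx1-Cre mice and do not state for the controls. The methods write the control genotype as Mx1-Cre; Map4k4−/−, and it is given here as written. The mice were 13 to 14 weeks old. In both libraries, cells enriched for c-Kit, the receptor that marks stem and progenitor cells, were mixed with marrow cells freed of red cells at 2 parts to 3, so the share of progenitors was set by the mixing. How many mice went into a library is not given in the sources used here, and with 1 library per group no test between Ctrl and cKO was possible. All intervals below are exact 95% intervals and cover counting error only.

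p53 is a transcription factor that is made continuously and kept scarce as a protein. MDM2 is the ubiquitin ligase that marks p53 for destruction, MDM4 is its relative that binds and silences p53, and *Mdm2* is itself a p53 target, which closes a feedback loop. When DNA damage or another stress frees p53, it switches on genes that stop the cell cycle (*Cdkn1a*), help to switch p53 off again (*Ccng1*, the cyclin G1 gene), restrain AKT signalling (*Phlda3*), bind RNA (*Zmat3*) or start apoptosis (*Bbc3*, which encodes PUMA). Blood stem cells and progenitors are known to be sensitive to this pathway. Because p53 is controlled mostly as a protein, its mRNA level is not a measure of its activity, and the counts below are mRNA counts only.

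Promoter sequences were examined because 5 members are known p53 targets and p53 binds a recognisable motif, a pair of 10-base decamers. A decamer was searched as 3 purines, C, A or T, A or T, G and 3 pyrimidines on both strands, and a full site as 2 decamers separated by at most 13 bases. RefSeq (GRCm38.p6) gave 11 promoter entries of 300 bases for 7 of the 8 members, each with 250 bases before and 50 after the start. *Zmat3* had no entry. The full site was found in 1 of the 11, a *Cdkn1a* entry at chr17:29090729-29091028 on the plus strand, and in 24 of 32851 promoters in all (0.0731%). The first base of the site lies 73 bases before the start of that entry, and its decamers, in capitals, are 12 bases apart. The 10 bases directly after the later decamer differ from the pattern only in their first base, so this strict search did not mark them. Which of these stretches p53 binds was not tested. The other *Cdkn1a* entry, for a start further along the gene at chr17:29093519-29093818, held no decamer. The *Trp53* promoter at chr11:69580109-69580408, also on the plus strand, is shown beside it because the other members are read against *Trp53*. It held no full site, and its capitals mark an E-box (CACGTG), found in 7.15% of all promoters.
Cdkn1a: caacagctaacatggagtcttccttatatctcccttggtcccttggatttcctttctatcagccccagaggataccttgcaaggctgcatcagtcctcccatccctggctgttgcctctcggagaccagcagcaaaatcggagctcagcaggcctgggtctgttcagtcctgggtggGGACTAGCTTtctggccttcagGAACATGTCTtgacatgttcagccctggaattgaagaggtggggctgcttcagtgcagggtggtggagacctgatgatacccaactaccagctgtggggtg
Trp53: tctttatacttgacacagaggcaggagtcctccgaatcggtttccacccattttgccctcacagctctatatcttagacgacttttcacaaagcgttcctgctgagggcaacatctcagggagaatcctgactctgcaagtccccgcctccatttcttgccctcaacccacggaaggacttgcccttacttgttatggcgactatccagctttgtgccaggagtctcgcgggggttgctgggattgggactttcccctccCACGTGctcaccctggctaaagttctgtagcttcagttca
A single decamer was found in 1 *Mdm2*, 1 *Ccng1* and 1 *Trp53* entry, against 8.36% of all promoters. These matches describe the letters of a short window, and the libraries hold no measurement of binding.

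The matrices give, for each gene and cell barcode, the number of UMIs, the tags that mark single captured RNA molecules. The Ctrl library held 71527701 UMIs in 10220 barcodes and the cKO library 64393950 in 6872. Filters of 200 to 9000 genes per barcode and a mitochondrial share of no more than 30% left 9965 Ctrl and 6718 cKO cells. cKO cells were deeper, with a median of 6244 UMIs against 4111. The libraries shared 3010 barcode strings, and cells with the same string were no more alike (median correlation 0.494) than each was to the cell of the next shared string (0.493). Cells were assigned to 16 classes by marker genes, which placed 12804 of the 16683 kept cells, and a class is called by its markers (for example mNeu-like, for mature neutrophils). With both libraries pooled, the 16 classes had 3 or more of their own markers among their 10 leading genes. In cKO alone imNeu-like cells had 2. 7 classes held at least 50 cells in both libraries and were compared. Along the neutrophil path these were HSC/MPP-like (stem cells and multipotent progenitors; 616 Ctrl and 190 cKO cells), ProNeu-like (911 and 643), PreNeu-like (1092 and 671), imNeu-like (immature; 1486 and 1192) and mNeu-like cells (1716 and 1317). The others were monocyte-like (567 and 275) and erythroid progenitor-like cells (429 and 81). Another 8 classes reached 50 cells in Ctrl only. Levels are given as CPM, UMIs of the gene per 1000000 UMIs of the summed cells of a class. *Map4k4* itself stood at 72.6 CPM in Ctrl and 64.3 CPM in cKO over all kept cells. Counts summed per gene do not show which exons were read, so they do not separate a deleted from an intact transcript, and Ctrl and cKO stand for the libraries so labelled.

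*Trp53*, on chromosome 11 (69580359 to 69591873, plus strand, GRCm38), gave 8077 UMIs in Ctrl (113 CPM) and 4397 in cKO (68.4 CPM) over all kept cells. Its inhibitors gave 3360 and 2561 UMIs (*Mdm2*, chromosome 10, 117688875 to 117710758, minus strand) and 5496 and 3395 UMIs (*Mdm4*, chromosome 1, 132959484 to 133030561, minus strand). These 3 genes were deeply counted and can be followed through the 7 compared classes. Of the targets, *Ccng1* (chromosome 11, 40748552 to 40755311, minus strand) gave 2252 and 1354 UMIs and *Cdkn1a* (chromosome 17, 29090976 to 29100727, plus strand) 734 and 640. *Bbc3* (chromosome 7, 16308393 to 16318205, plus strand) gave 230 and 166 UMIs, *Zmat3* (chromosome 3, 32334792 to 32366014, minus strand) 149 and 79, and *Phlda3* (chromosome 1, 135766119 to 135769136, plus strand) 49 and 33. The last 3 were sparse, and many of their class values rest on a handful of molecules. Levels are compared within a gene and never between genes, since the counts are not per length. Between 87.8% and 96.2% of each member's UMIs lay in cells with a class.

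**Figure D1:**
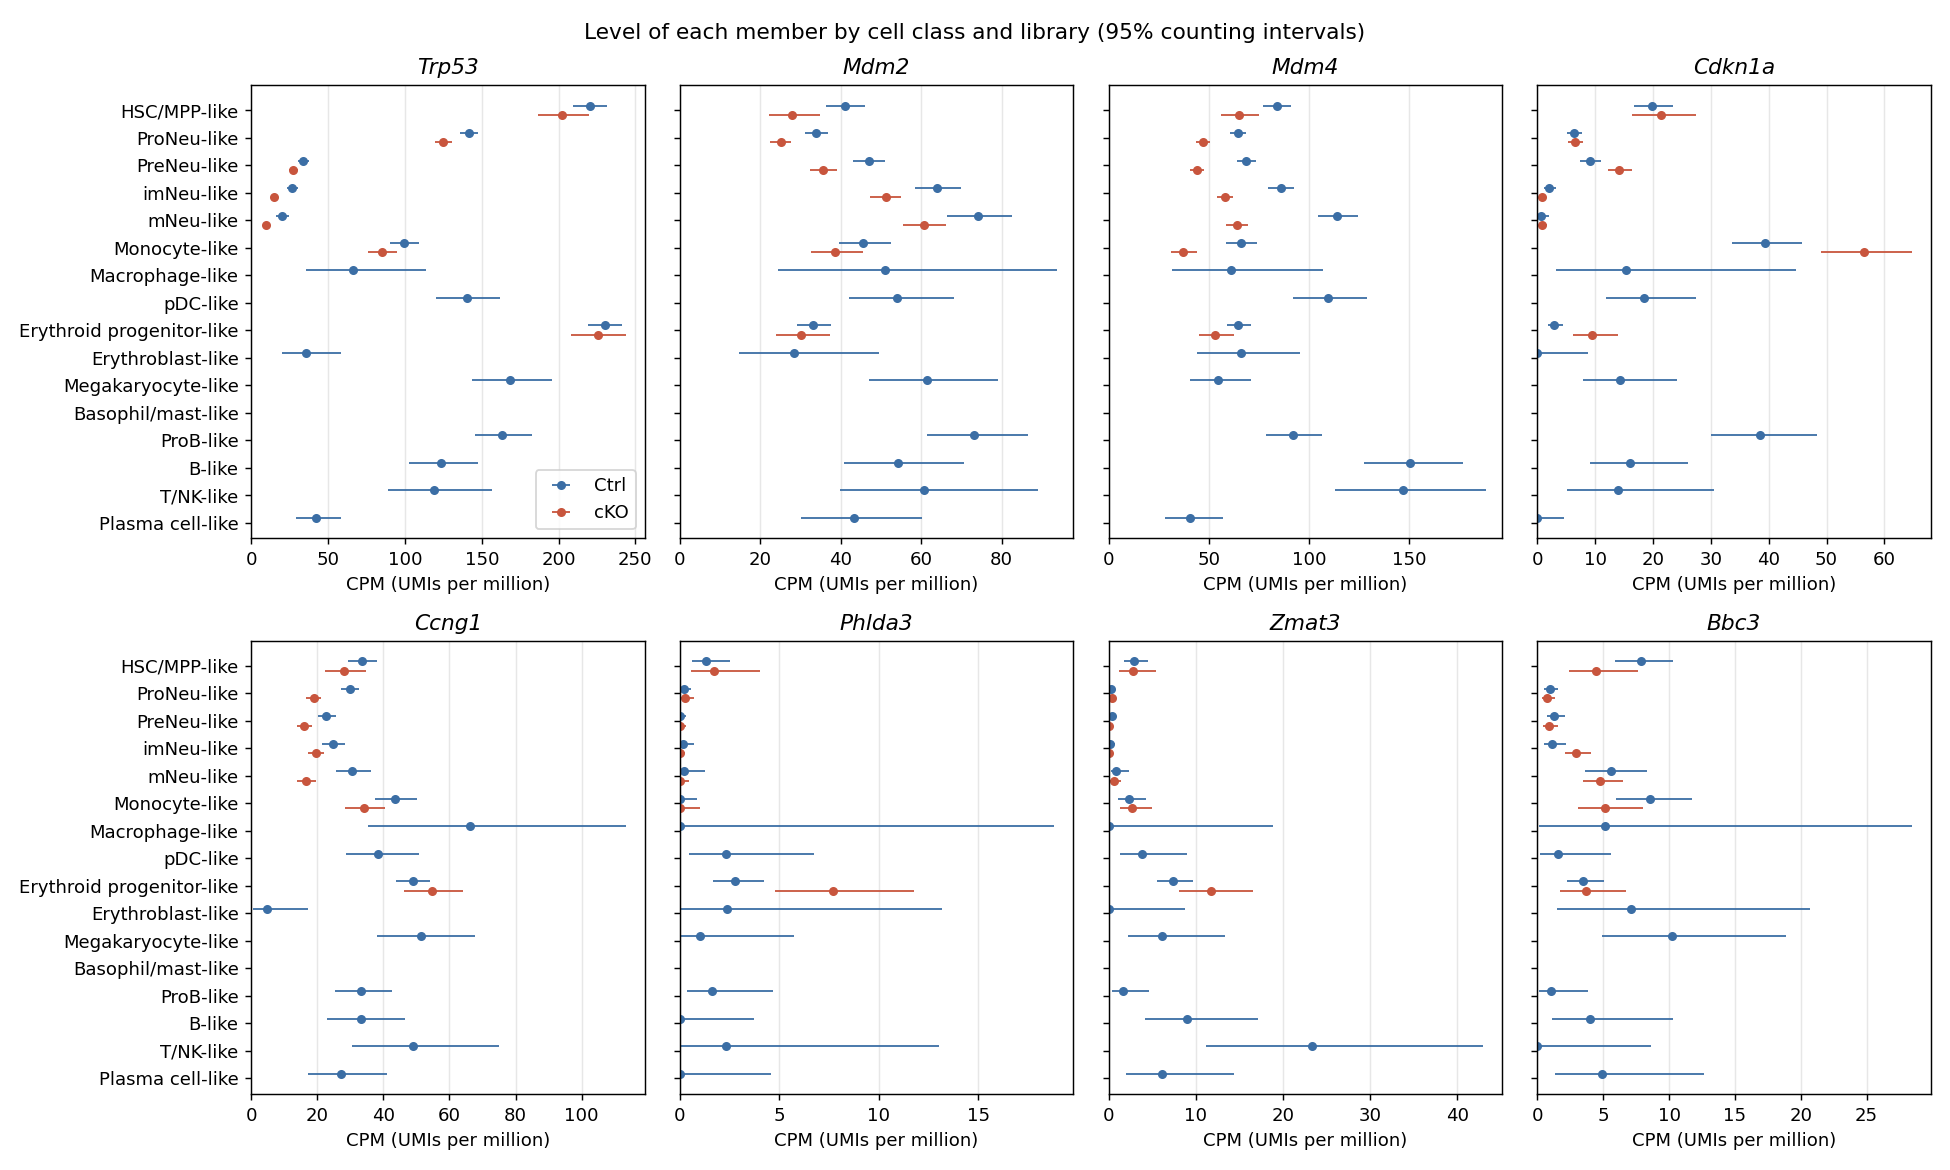
CPM of each of the 8 genes (1 panel per gene, horizontal axis in CPM from 0) by marker-defined class (vertical axis) in Ctrl and cKO, with exact 95% Poisson intervals. *Trp53* is highest in the erythroid progenitor-like and HSC/MPP-like cells of both libraries, *Mdm2* in mNeu-like cells and *Cdkn1a* in monocyte-like cells.

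*Trp53* mRNA was a progenitor transcript in these libraries. Its level was highest in erythroid progenitor-like cells, at 230 CPM in Ctrl (interval 219 to 241) and 226 CPM in cKO (208 to 244), followed by HSC/MPP-like cells at 220 and 203 CPM. The intervals of these top classes overlapped in both libraries. ProNeu-like cells held 141 and 125 CPM and monocyte-like cells 99.3 and 85.0 CPM. The lowest levels were those of mNeu-like cells, 19.8 CPM in Ctrl (15.9 to 24.4) and 9.34 CPM in cKO (7.41 to 11.6). In cKO, from HSC/MPP-like cells down, no neighbours in this order had overlapping intervals. The classes measured in Ctrl only lay between these ends, from 168 CPM in megakaryocyte-like and 163 CPM in proB-like cells, through 123 CPM in B-like and 119 CPM in T/NK-like cells, to 42.0 CPM in plasma cell-like and 35.5 CPM in erythroblast-like cells. A low level was found at the mature end of the red lineage as well as of the neutrophil lineage, the erythroblast-like level resting on 15 UMIs.

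The inhibitors ran differently from *Trp53*. *Mdm2* was highest in mNeu-like cells in both libraries, at 74.1 CPM in Ctrl (66.4 to 82.6) and 60.6 CPM in cKO (55.5 to 66.1), and the next class of the neutrophil path, imNeu-like cells, held 64.0 and 51.1 CPM. Its levels in erythroid progenitor-like cells, the class richest in *Trp53*, were 33.1 and 30.1 CPM. In Ctrl, proB-like cells held 73.2 CPM of *Mdm2* and could not be told from mNeu-like cells by their intervals. *Mdm4* varied less than *Mdm2* over the 7 compared classes, in Ctrl from 64.5 CPM in ProNeu-like to 114 CPM in mNeu-like cells. Its range was wider with the classes compared in Ctrl only. It then ran from 40.8 CPM in plasma cell-like to 151 CPM in B-like and 147 CPM in T/NK-like cells, the only classes there above mNeu-like cells. In cKO, *Mdm4* ranged only from 37.2 CPM in monocyte-like to 65.2 CPM in HSC/MPP-like cells, whose interval overlapped that of mNeu-like cells at 63.9 CPM. Over the 7 compared classes, 7 of the 8 members had the same highest class in both libraries, and *Mdm4* was the exception.

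The cell cycle inhibitor gene *Cdkn1a* was a monocyte-like transcript first. It stood at 39.4 CPM (33.7 to 45.8) in Ctrl and 56.5 CPM (49.1 to 64.7) in cKO monocyte-like cells, from 171 UMIs in 112 cells and 208 UMIs in 82 cells. HSC/MPP-like cells followed at 19.9 and 21.4 CPM, and mNeu-like cells were near 0, with 3 UMIs among 1716 Ctrl cells and 7 UMIs in 2 of 1317 cKO cells. *Cdkn1a* was also high in Ctrl proB-like cells, at 38.5 CPM, which the intervals did not separate from monocyte-like cells. No *Cdkn1a* UMI was counted in 98 Ctrl erythroblast-like cells, where 3 UMIs would be 7.09 CPM, so a level as low as that of erythroid progenitor-like cells was not detectable there.

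*Ccng1*, *Zmat3* and *Phlda3* shared erythroid progenitor-like cells as their highest class among the 7 in both libraries. *Ccng1* held 48.8 CPM there in Ctrl and 54.7 CPM in cKO, against 22.7 and 15.9 CPM in PreNeu-like cells. *Zmat3* held 7.42 and 11.7 CPM there, against 0.316 and 0.343 CPM in ProNeu-like cells. *Phlda3* held 2.75 and 7.70 CPM, from 20 and 21 UMIs, and no *Phlda3* UMI was counted in the monocyte-like or PreNeu-like cells of either library, where 3 UMIs would be between 0.236 CPM (PreNeu-like, cKO) and 0.815 CPM (monocyte-like, cKO). *Zmat3* and *Phlda3* were near 0 in the granule-forming stages, and 1 deep cKO cell, described below, carried part of their erythroid signal. In Ctrl, *Zmat3* reached 23.4 CPM in T/NK-like cells from 10 UMIs, with an interval (11.2 to 43.0) that overlapped that of B-like cells at 9.03 CPM. Among the 7 compared classes *Bbc3* was highest in monocyte-like cells, at 8.52 and 5.16 CPM, and its intervals there overlapped those of HSC/MPP-like (7.90 and 4.49 CPM) and mNeu-like cells (5.62 and 4.79 CPM).

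**Figure D2:**
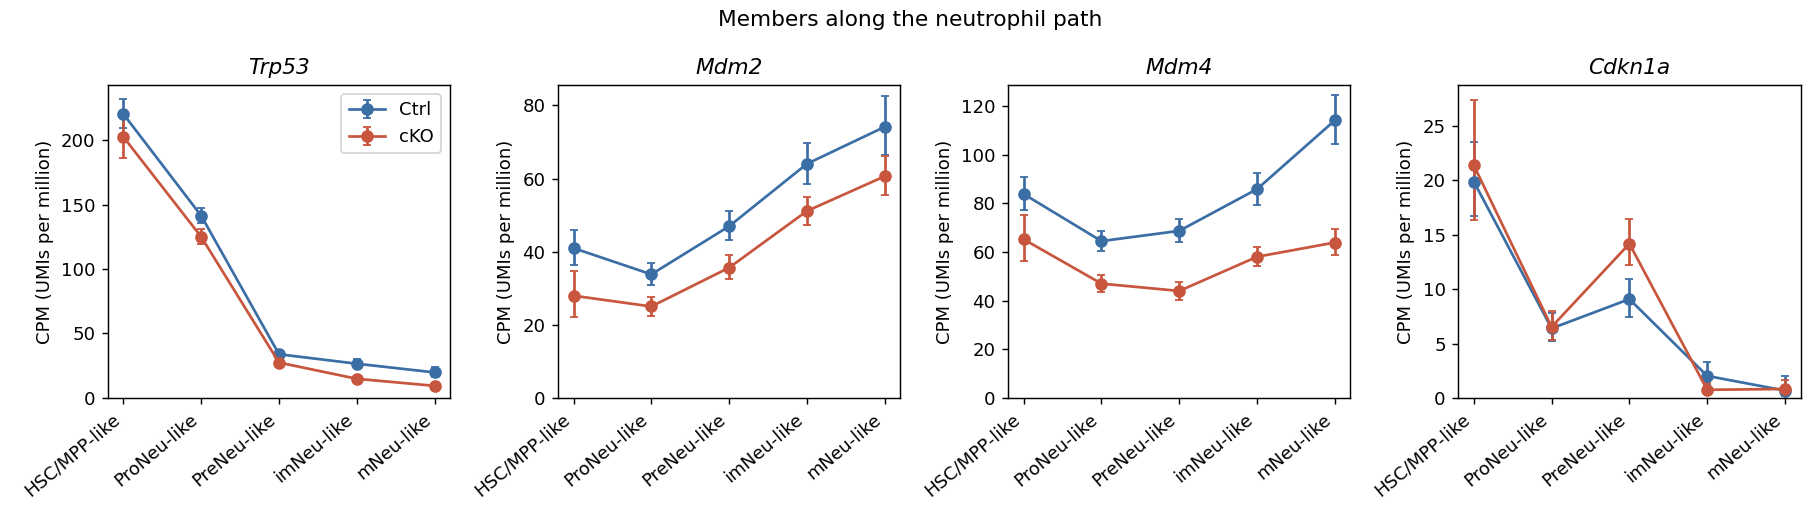
CPM of *Trp53*, *Mdm2*, *Mdm4* and *Cdkn1a* (1 panel each, vertical axis) over the 5 stages of the neutrophil path from HSC/MPP-like to mNeu-like cells (horizontal axis) in Ctrl and cKO, with exact 95% Poisson intervals. *Trp53* is lower at each next stage in both libraries, *Mdm2* is higher at each stage after ProNeu-like cells, and *Cdkn1a* has a second, smaller peak in PreNeu-like cells.

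Along the neutrophil path *Trp53* and *Mdm2* ran in opposite directions. *Trp53* was lower at every next stage, from 220 through 141, 33.9 and 26.5 to 19.8 CPM in Ctrl and from 203 through 125, 27.4 and 14.8 to 9.34 CPM in cKO. The steepest step in both libraries was from ProNeu-like to PreNeu-like cells, where primary granule production gives way to secondary granules (log2 ratio −2.06 in Ctrl, interval −2.22 to −1.91, and −2.19 in cKO, −2.36 to −2.02). *Mdm2* was lowest on this path in ProNeu-like cells (33.8 CPM in Ctrl) and higher at each later stage up to mNeu-like cells. From HSC/MPP-like to mNeu-like cells, *Trp53* differed by a log2 ratio of −3.48 in Ctrl (−3.81 to −3.17) and −4.44 in cKO (−4.79 to −4.10). *Mdm2* differed by 0.86 (0.62 to 1.09) and 1.12 (0.78 to 1.47). The median gene differed by −1.44 and −1.62 between these classes, so the typical gene also stood lower in the mature cells, and *Mdm2* lay well above that median.

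Of the 6 members with enough UMIs for this comparison in both libraries, 2 were more than 2-fold lower in mNeu-like than in HSC/MPP-like cells in both (*Trp53* and *Cdkn1a*) and 0 were more than 2-fold higher in both. Among all 10331 genes compared, 54.1% were lower and 13.2% higher by that rule. *Cdkn1a* differed by −4.88 (−7.18 to −3.31) in Ctrl, against only 3 UMIs in mNeu-like cells, and by −4.71 (−6.08 to −3.58) in cKO. *Mdm4* differed by 0.45 (0.27 to 0.62) in Ctrl and by −0.03 (−0.27 to 0.22) in cKO, the intervals lying apart. *Ccng1* differed by −0.13 (−0.44 to 0.19) and −0.75 (−1.16 to −0.34). The path of *Bbc3* was a trough: it stood at 7.90 CPM in HSC/MPP-like cells of Ctrl, 0.949 in ProNeu-like, 1.27 in PreNeu-like, 1.14 in imNeu-like and 5.62 CPM in mNeu-like cells. In cKO the same 5 stages gave 4.49, 0.756, 0.867, 2.98 and 4.79 CPM, so in cKO the imNeu-like level already lay nearer to the mNeu-like level. *Cdkn1a* had a second peak in PreNeu-like cells, the dividing stage, at 9.09 CPM in Ctrl and 14.2 CPM in cKO, and stood at 2.02 and 0.744 CPM in imNeu-like cells.

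RNA released from other cells adds a background to every droplet, and it differed between the libraries. In mNeu-like cells, *Car1*, an erythroid gene, stood at 1.87% of its highest class in Ctrl and at 0.153% in cKO. *Mpo*, a ProNeu gene, stood at 4.31% and 1.36%, and *Trp53* at 8.59% and 4.14%. Summed over whole marker lists in mNeu-like cells, the 11 erythroid progenitor markers held 212 CPM in Ctrl and 68.9 CPM in cKO, the 8 ProNeu markers 1434 and 643 CPM, and the 9 proB markers 45.6 and 0.584 CPM. Each of these 28 markers was lower in cKO, none of them was at 0 in Ctrl, and 5 proB markers were at 0 in cKO. Of the 12 HSC/MPP markers, 10 were lower in cKO, although their sum was higher there (676 against 3351 CPM). *Ifitm1*, 1 of these 12, was among the 10 leading genes of cKO mNeu-like cells, and its part in the sum is not given here. mNeu-like cells were also deeper in cKO, with a median of 6128 against 2270 UMIs. The low *Trp53* level of mature cells lay within the range in which such background could matter, and its part in the result was not tested.

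The comparison of cKO with Ctrl asks whether the p53 genes stood differently within a cell class of the knockout library. Over the 7 classes, 45 gene and class pairs had at least 20 UMIs over both libraries, and 15 of them passed 1.5-fold, 5 higher and 10 lower in cKO. Most genes were lower in cKO within a class, with all-gene medians of the log2 ratio between −0.49 in mNeu-like and −0.14 in HSC/MPP-like cells. Along the neutrophil path, from HSC/MPP-like to mNeu-like cells, the medians over the members were −0.26, −0.38, −0.45, −0.45 and −0.84, followed by −0.24 for monocyte-like and 0.13 for erythroid progenitor-like cells. Scaling each class by the median of gene ratios in place of total UMIs removes the all-gene shift. With it the member medians were −0.12, −0.09, −0.09, −0.01, −0.35, −0.04 and 0.30 in the same order, and 6 pairs were higher and 4 lower. On that scale 7.44% (PreNeu-like) to 12.1% (erythroid progenitor-like) of all genes were higher by class, and 6.72% (ProNeu-like) to 18.4% (mNeu-like) lower. Member ratios by class are therefore given on the CPM scale with the rescaled log2 ratio beside them.

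**Figure D3:**
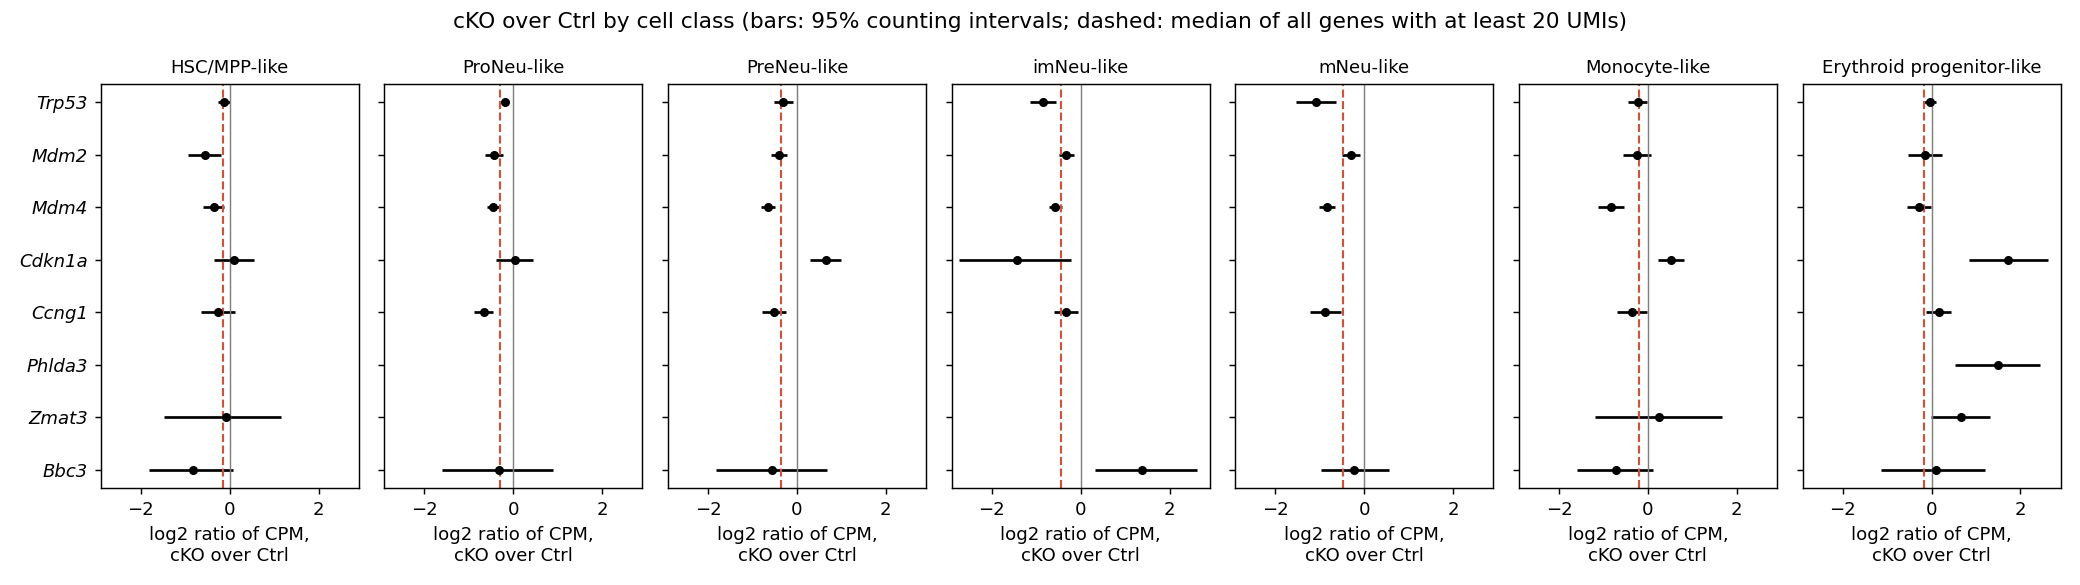
log2 ratio of cKO over Ctrl CPM (horizontal axis) for each member (vertical axis) in each of the 7 compared classes, with exact 95% binomial intervals and a dashed line at the median of all genes in that class. *Cdkn1a* lies to the right of the line in PreNeu-like, monocyte-like and erythroid progenitor-like cells, and *Trp53* and *Mdm4* lie to the left of it in mNeu-like cells.

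*Trp53* was close to equal in the progenitor classes, with log2 ratios of −0.12 (−0.26 to 0.02; rescaled 0.02) in HSC/MPP-like and −0.03 (−0.16 to 0.11; rescaled 0.14) in erythroid progenitor-like cells. It was lower in cKO in the maturing neutrophils, by −0.84 (−1.13 to −0.55; rescaled −0.40) in imNeu-like cells, 26.5 against 14.8 CPM, and by −1.08 (−1.54 to −0.63; rescaled −0.60) in mNeu-like cells, 19.8 against 9.34 CPM. Many markers of other cells were also lower in cKO in these classes: in imNeu-like cells each of the 11 erythroid progenitor markers, 8 ProNeu markers and 9 proB markers was lower, with sums of 119 against 32.2, 1318 against 803 and 32.1 against 0.298 CPM. The lists of HSC/MPP markers (11 of 12 lower) and monocyte markers (9 of 10 lower) had higher sums in cKO, 72.2 against 135 and 1348 against 1717 CPM. In PreNeu-like cells *Trp53* differed by −0.30 (−0.52 to −0.09), but by 0.06 (−0.16 to 0.27) after rescaling. The 11 erythroid progenitor markers and 9 proB markers were lower there too. The part of these markers in the *Trp53* ratios was not tested. *Mdm4* was lower past 1.5-fold in PreNeu-like (−0.64, −0.80 to −0.49; rescaled −0.28), mNeu-like (−0.84, −1.01 to −0.66; rescaled −0.35) and monocyte-like cells (−0.83, −1.13 to −0.53; rescaled −0.62). In monocyte-like cells *Mdm4* passed 1.5-fold on both scales, at 66.1 CPM in Ctrl and 37.2 CPM in cKO. *Mdm2* passed 1.5-fold in 0 of the 7 classes, and its log2 ratios lay between −0.55 in HSC/MPP-like and −0.14 in erythroid progenitor-like cells.

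*Cdkn1a* stood apart from the other members in PreNeu-like cells, where it was higher in cKO. From 107 UMIs in 85 Ctrl cells and 180 UMIs in 115 cKO cells, its log2 ratio was 0.64 (0.29 to 1.002; rescaled 1.003), in a class in which 1.63% of genes were higher past 1.5-fold and 27.2% lower. After rescaling, 7.44% of genes in this class were higher and 9.35% lower. Monocyte-like cells gave 0.52 (0.22 to 0.82; rescaled 0.72), short of 1.5-fold on the CPM scale. In imNeu-like cells, the stage that follows the PreNeu stage, the ratio was of the opposite sign, −1.44 (−2.74 to −0.21; rescaled −1.0, −2.30 to 0.23), from 16 UMIs in 15 Ctrl cells and 10 UMIs in 9 cKO cells. The PreNeu-like class is cut from the imNeu-like class at 20 UMIs of cycling genes per 10000, and 176 of 2578 Ctrl and 101 of 1863 cKO cells lay near that cut, between 15 and 25. In HSC/MPP-like and ProNeu-like cells *Cdkn1a* had log2 ratios of 0.10 (−0.35 to 0.55; rescaled 0.24) and 0.03 (−0.39 to 0.45; rescaled 0.33). PreNeu-like cells held a median of 10192 UMIs in Ctrl and 19306 in cKO. With each cell thinned to 1000 UMIs, 10 of 1071 Ctrl cells (0.934%) and 7 of 656 cKO cells (1.07%) held a *Cdkn1a* UMI, so at equal depth a difference in the share of cells was not detectable. Unthinned, the shares were 7.78% and 17.1%, against 0.175% and 0.152% in mNeu-like cells. Of the markers of other cells, 4 of 8 ProNeu markers were lower in cKO PreNeu-like cells (2356 and 2510 CPM summed), as were the 11 erythroid progenitor markers (109 and 37.7 CPM), the 9 proB markers (22.9 and 2.44 CPM) and 10 of 12 HSC/MPP markers (55.2 and 41.6 CPM). Of the 10 monocyte markers 9 were lower there, although their sum was 1277 CPM in Ctrl and 1387 CPM in cKO. In monocyte-like cells 3 of 8 ProNeu markers (2450 and 2834 CPM) and 10 of 11 erythroid progenitor markers (133 and 81.0 CPM) were lower. Their part in these ratios was not tested.

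The apoptosis gene *Bbc3* was higher in cKO imNeu-like cells, with 9 UMIs in 9 of 1486 Ctrl cells and 40 UMIs in 36 of 1192 cKO cells, 1.14 against 2.98 CPM. Its log2 ratio was 1.39 (0.32 to 2.62; rescaled 1.83), where 2.39% of genes were higher and 38.6% lower past 1.5-fold. After rescaling, 9.15% of genes in this class were higher and 16.2% lower. With each cell thinned to 1000 UMIs, 2 of 1462 Ctrl and 3 of 1186 cKO cells held a *Bbc3* UMI, too few to compare. Markers of the next stage moved with it: summed over their list, mNeu markers stood at 7083 CPM in Ctrl and 10996 CPM in cKO imNeu-like cells, and their part in the *Bbc3* ratio was not tested. In mNeu-like cells the ratio was −0.23 (−0.98 to 0.55; rescaled 0.25). *Bbc3* was lower past 1.5-fold in HSC/MPP-like (−0.82, −1.81 to 0.08; rescaled −0.68) and monocyte-like cells (−0.72, −1.60 to 0.11; rescaled −0.52), but both intervals included 0. *Ccng1* was lower past 1.5-fold in ProNeu-like (−0.67, −0.89 to −0.45; rescaled −0.37) and mNeu-like cells (−0.88, −1.23 to −0.53; rescaled −0.40), and neither passed after rescaling.

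The counts of members past 1.5-fold stood beside the following shares of all genes with as many UMIs. In mNeu-like cells 3 of 5 members were lower (*Trp53*, *Mdm4*, *Ccng1*) and 0 higher, where 42.0% of genes were lower and 3.12% higher. In ProNeu-like cells 1 of 6 was lower (*Ccng1*) against 21.9%, and 0 were higher against 1.99%. In HSC/MPP-like cells 1 of 7 was lower (*Bbc3*) against 13.8%, and 0 were higher against 4.86%. PreNeu-like cells had 1 of 6 higher against 1.63% of genes and 1 lower against 27.2%. The imNeu-like cells had 1 of 6 higher against 2.39% and 2 lower against 38.6%. Monocyte-like cells had 0 of 7 higher and 2 lower, where 19.9% of genes were lower and 4.3% higher. Erythroid progenitor-like cells had 3 of 8 higher, where 6.4% of genes were higher and 21.2% lower. Without the cell with most UMIs of the gene in cKO, *Phlda3* alone of the 3 stayed past 1.5-fold, and without that of each library *Cdkn1a* and *Phlda3* did.

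In erythroid progenitor-like cells the targets *Cdkn1a*, *Phlda3* and *Zmat3* stood higher in cKO. Their CPM were 2.89 in Ctrl and 9.54 in cKO for *Cdkn1a*, 2.75 and 7.70 for *Phlda3*, and 7.42 and 11.7 for *Zmat3*. The log2 ratios were 1.72 (0.84 to 2.63; rescaled 1.89), 1.49 (0.53 to 2.45; rescaled 1.66) and 0.66 (−0.02 to 1.32; rescaled 0.83). One cKO cell of 114556 UMIs carried 16 of the 26 *Cdkn1a* UMIs, 10 of the 21 *Phlda3* UMIs, 8 of the 32 *Zmat3* UMIs and 27 of the 149 *Ccng1* UMIs. The median cell of the class held 14031 UMIs in Ctrl and 29986 in cKO. Without that cell the log2 ratios were 0.41 (−0.84 to 1.56) for *Cdkn1a*, 0.62 (−0.59 to 1.75) for *Phlda3* and 0.31 (−0.45 to 1.03) for *Zmat3*, and the 3 intervals then included 0. In Ctrl, 1 cell of 23212 UMIs carried 9 of the 21 *Cdkn1a* UMIs. When the cell with most UMIs of the gene was left out of each library, the ratios were 1.21 (−0.16 to 2.55), 0.93 (−0.32 to 2.13) and 0.41 (−0.35 to 1.14) in the same order, and again the 3 intervals included 0. A level of *Cdkn1a* averaged over this class is thus set by a few cells in both libraries. No doublets were called here, and whether the deepest barcode held more than 1 cell was not tested.

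**Figure D4:**
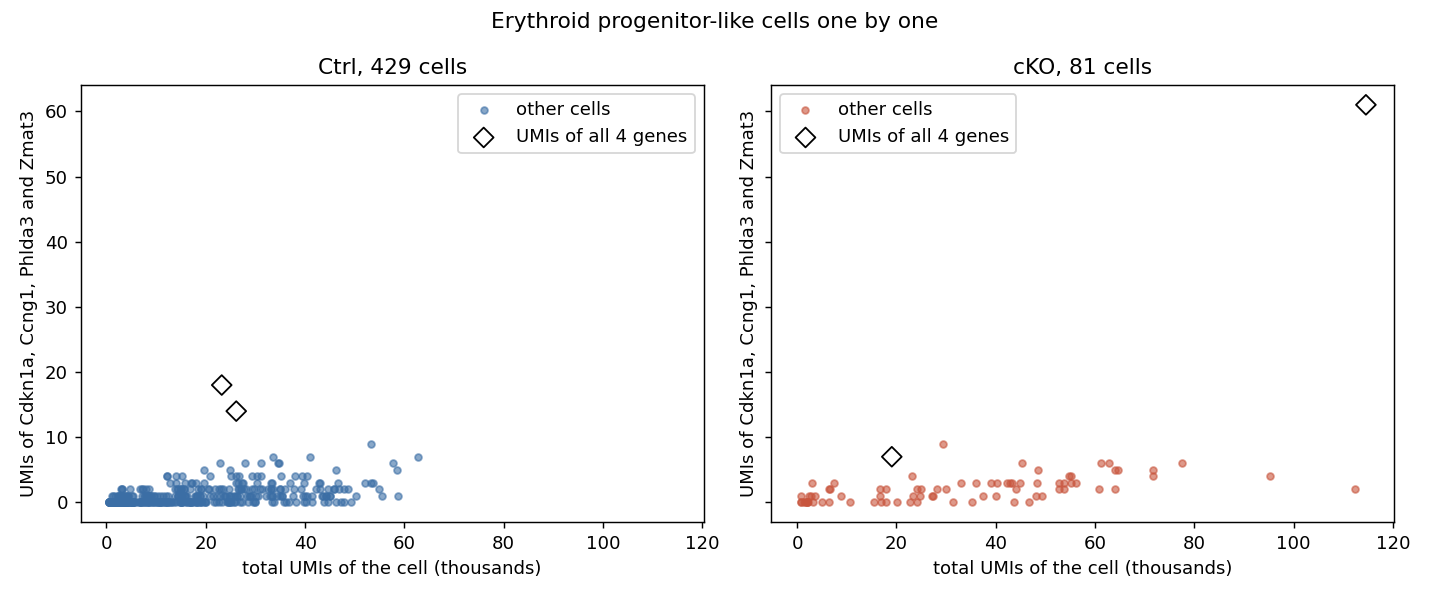
Each point is 1 erythroid progenitor-like cell, with its total UMIs in units of 1000 (horizontal axis) and the summed UMIs of *Cdkn1a*, *Ccng1*, *Phlda3* and *Zmat3* (vertical axis), in Ctrl and cKO. One cKO cell of 114556 UMIs, with 61 UMIs of these 4 targets, stands far from the rest.

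Cells that carried UMIs of all 4 of *Cdkn1a*, *Ccng1*, *Phlda3* and *Zmat3* were looked for after that cell had been seen, so their number is a description. There were 8 among the cells with a class, 4 of them erythroid progenitor-like, 2 in each library. Another 2 were megakaryocyte-like (1 per library), 1 was a Ctrl proB-like cell and 1 a cKO ProNeu-like cell. Their depths ran from 13211 to 114556 UMIs. The Ctrl megakaryocyte-like cell held 14825 UMIs, of which 6 were *Cdkn1a*, 4 *Ccng1*, 1 *Phlda3*, 2 *Zmat3* and 9 *Mdm2*, and the cKO one held 13211 UMIs, of which 6 were *Cdkn1a*. Most cells held none of the 4. In erythroid progenitor-like cells 226 of 429 Ctrl and 22 of 81 cKO cells held none, and in mNeu-like cells 1584 of 1716 and 1185 of 1317.

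*Cdkn1a* restrains cyclin-dependent kinases, so the members were also set against cell division within a gate. Among cells with secondary granule genes, dividing (PreNeu-like) cells carried more *Cdkn1a* than non-dividing (imNeu-like) cells in both libraries, by a log2 ratio of 2.17 (1.40 to 3.03) in Ctrl and 4.25 (3.34 to 5.34) in cKO. The median gene differed by 0.12 and 0.23. *Trp53* was likewise higher in the dividing cells, by 0.35 (0.11 to 0.60) and 0.89 (0.63 to 1.15), whereas *Mdm2* was lower, by −0.45 (−0.62 to −0.27) and −0.52 (−0.70 to −0.35). *Bbc3* was lower in dividing cells of cKO, by −1.78 (−2.89 to −0.79), but not separable in Ctrl, at 0.16 (−1.12 to 1.54). This cut also separates an earlier from a later stage, and stage and division cannot be told apart in it.

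Within the earlier gates dividing and non-dividing cells differed in other members. In HSC/MPP-like cells *Cdkn1a* did not follow division in Ctrl, at 0.00 (−0.51 to 0.51), and was lower in dividing cells of cKO, by −0.90 (−1.78 to −0.08). In ProNeu-like cells *Cdkn1a* was lower in dividing cells of Ctrl, by −0.71 (−1.31 to −0.12), and the cKO value was −0.18 (−0.79 to 0.44). *Ccng1* was lower in dividing ProNeu-like cells of both libraries, by −0.31 (−0.57 to −0.04) and −0.63 (−0.99 to −0.28). In HSC/MPP-like cells it was lower in dividing cells by −0.56 (−0.97 to −0.15) in Ctrl, with −0.38 (−1.08 to 0.30) in cKO. *Bbc3* stood at 11.1 CPM in non-dividing and 3.71 CPM in dividing HSC/MPP-like cells of Ctrl, a log2 ratio of −1.58 (−2.68 to −0.60), with −0.78 (−2.93 to 1.06) in cKO. That Ctrl value rests on 43 and 11 UMIs, and with every cell thinned to 1000 UMIs it changed sign (1.09). The median cells held 8384 and 13644 UMIs, so the thinned value rests on fewer *Bbc3* UMIs still and cannot decide the sign. In erythroid progenitor-like cells *Trp53* was lower in dividing cells of both libraries, by −0.41 (−0.62 to −0.20) and −0.56 (−0.89 to −0.22), where the median gene differed by −0.02 and 0.04. The dividing group there was deeper, with a median of 14970 against 8025 UMIs in Ctrl and 40368 against 11995 in cKO. The non-dividing group was small, at 58 Ctrl and 18 cKO cells with 211 and 86 *Trp53* UMIs.

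Cells with at least 1 *Cdkn1a* UMI were compared with cells without one, to see whether other members of the pathway moved with it in the same cells. In ProNeu-like cells *Trp53* was higher in the cells with *Cdkn1a*, by 0.32 (0.14 to 0.49) in Ctrl and 0.38 (0.21 to 0.55) in cKO. In PreNeu-like cells the difference was 0.61 (0.13 to 1.07) and 0.59 (0.23 to 0.94), and in monocyte-like cells 0.21 (−0.10 to 0.51) and 0.49 (0.16 to 0.82). HSC/MPP-like cells of Ctrl gave −0.09 (−0.28 to 0.09), so the pattern was not seen there. Among the targets, *Ccng1* was higher in ProNeu-like cells with *Cdkn1a* in Ctrl, by 0.43 (0.03 to 0.80), and in the other 6 comparisons its interval included 0. The 4 *Phlda3* UMIs of cKO ProNeu-like cells all lay in the 69 cells with *Cdkn1a*, with 0 in the 574 others (lower limit of the log2 ratio 1.78). They came from only 2 cells, 3 of them from 1 cell of 48114 UMIs, and the limit does not cover such clustering. *Mdm2* gave values between −0.21 and 0.28. Cells with *Cdkn1a* were deeper (for ProNeu-like cells of cKO a median of 34221 against 20329 UMIs), and with each cell thinned to 1000 UMIs the *Trp53* value of cKO PreNeu-like cells turned to −0.18. That value keeps only a small part of the 91 *Trp53* UMIs with and 257 without *Cdkn1a*, so it cannot decide the sign. Stage markers moved with the split too: in ProNeu-like cells of cKO, each of the 12 HSC/MPP markers was higher in the cells with *Cdkn1a* (758 against 213 CPM summed), and in PreNeu-like cells each of the 8 ProNeu markers was lower in them in both libraries. Their part in the *Trp53* difference was not tested.

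The genes whose levels ran most like each member over the 22 points (15 classes of Ctrl and 7 of cKO) were ranked among 9763 genes by Pearson correlation of log2(CPM + 10). For *Trp53* they were *Npm1* (0.990), which encodes the nucleolar protein nucleophosmin, *Cct3* (0.989), a chaperonin subunit, and *Gtpbp4* (0.988), which acts in ribosome assembly. For *Mdm2* they were *Cyb561d1* (0.866), *Parp4* (0.850) and *Vps54* (0.849), and for *Mdm4* *Gpbp1l1* (0.888), *Cep120* (0.886) and *Grap* (0.871). *Trp53* thus had near neighbours and the inhibitors had looser ones. For *Cdkn1a* the closest were *Igsf8* (0.888), *Dpysl2* (0.865) and *Gm13212* (0.857), for *Ccng1* *Bloc1s6* (0.903), *Anapc2* (0.899) and *Mtg2* (0.880), and for *Zmat3* *Flt3l* (0.857), *Rapgef1* (0.851) and *Abcf3* (0.821). *Phlda3* lay closest to *Ttll12* (0.847), *E2f4* (0.847) and *Recql4* (0.845), and *Bbc3* to *Zfand5* (0.710), *Pbx3* (0.691) and *Creg1* (0.640), the weakest set. The ranked genes had to hold at least 500 UMIs, a minimum that *Zmat3*, *Phlda3* and *Bbc3* themselves did not reach. The part of their counting error in these values was not tested. Between members, *Trp53* and *Mdm2* gave −0.32, *Trp53* and *Ccng1* 0.59, and *Mdm2* and *Mdm4* 0.55. The points share 2 libraries and differ in depth, so these values describe the libraries.

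**Figure D5:**
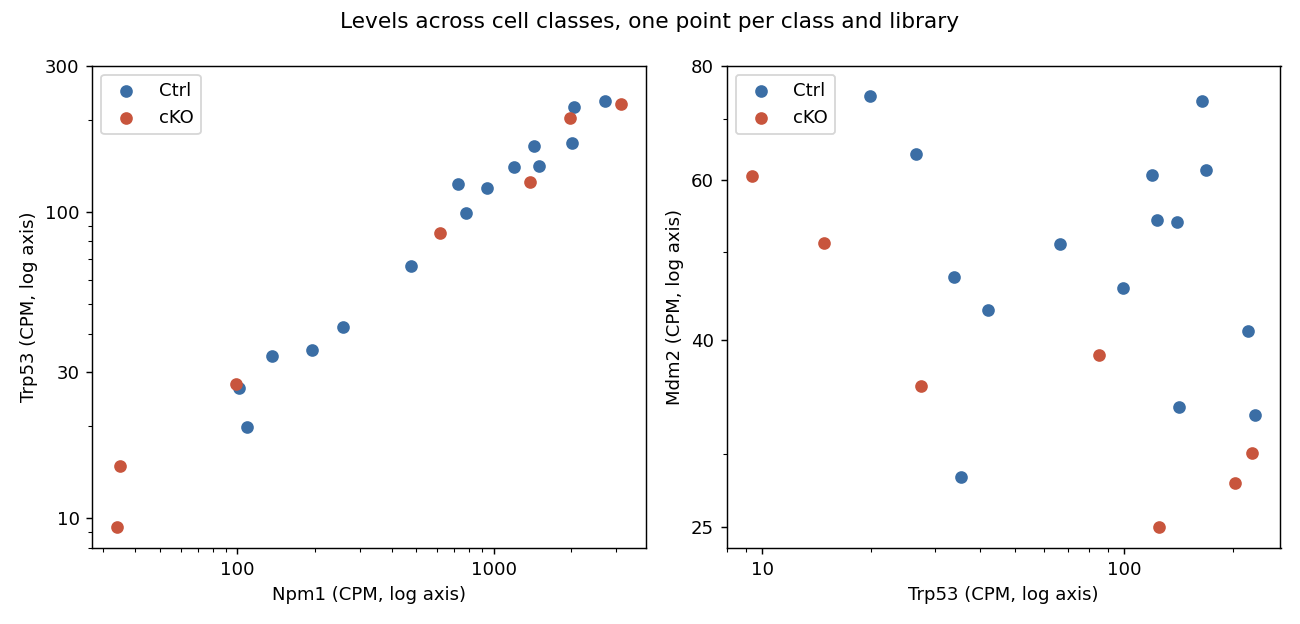
Each point is 1 class in 1 library. The left panel plots *Trp53* (vertical axis) against *Npm1* (horizontal axis) and the right panel *Mdm2* against *Trp53*, in CPM on log axes. *Npm1* and *Trp53* rise together over the points (correlation 0.990), whereas *Mdm2* and *Trp53* do not (−0.32).

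The wider pathway was covered by 3 lists: 21 regulators of p53, 2 family members (*Trp63* and *Trp73*) and 37 other targets, all of which are in the matrices. The list genes with most UMIs were the ribosomal protein genes *Rpl11* and *Rpl5* and *Npm1*, whose products are known to bind MDM2 or its partners under nucleolar stress. *Rpl11* stood at 2427 CPM in Ctrl and 3167 CPM in cKO HSC/MPP-like cells and at 393 and 262 CPM in mNeu-like cells, and *Rpl5* at 2507 and 2948 CPM and at 314 and 168 CPM. *Npm1* stood at 2053 and 1982 CPM in HSC/MPP-like cells and at 109 and 34.0 CPM in mNeu-like cells. All 3 were, like *Trp53*, far lower at the mature end of the path. The family members never reached 20 UMIs in a class. Other list genes stood highest at that end and are named here after their values were seen. The death receptor gene *Fas* stood at 3.66 CPM in HSC/MPP-like and 109 CPM in mNeu-like cells of Ctrl, and at 3.45 and 84.3 CPM in cKO. The stress gene *Sesn2* stood at 6.58 and 69.0 CPM in Ctrl and at 3.45 and 60.3 CPM in cKO. *Gadd45a*, a growth arrest gene, gave 21.2 and 243 CPM in Ctrl and 15.2 and 160 CPM in cKO. *Trp53inp1* gave 19.6 and 272 CPM and 15.5 and 214 CPM, and *Rchy1*, which encodes another ubiquitin ligase of p53, 35.4 and 109 CPM and 33.8 and 81.9 CPM. Like *Mdm2*, these genes were higher in mNeu-like than in HSC/MPP-like cells of both libraries. Of all genes, 13.2% were higher past 2-fold in both libraries and 54.1% lower. How many list genes went either way is not given here, so these genes do not describe the lists.

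Of the regulators with at least 20 UMIs, 0 were higher past 1.5-fold in cKO in any of the 7 classes, and from 3 of 20 in HSC/MPP-like to 9 of 16 in mNeu-like cells were lower, the latter including the stress kinase gene *Atr* and the histone deacetylase gene *Sirt1*. Of all genes, 13.8% were lower in the former class and 42.0% in the latter. Few of all genes were higher either, from 1.63% in PreNeu-like to 6.4% in erythroid progenitor-like cells. Of the other targets, 14 of 24 were lower and 1 higher (*Plk2*, with an interval from −0.29 to 1.76) in mNeu-like cells, where 42.0% of all genes were lower and 3.12% higher. In imNeu-like cells 12 of 29 were lower and 1 higher (*Sesn2*), where 38.6% of all genes were lower and 2.39% higher. The list medians lay on either side of those of all genes. Along the path from HSC/MPP-like to mNeu-like cells they were −0.10, −0.47, −0.39, −0.52 and −0.62 for regulators and −0.11, −0.28, −0.44, −0.49 and −0.71 for targets, against −0.14, −0.30, −0.36, −0.44 and −0.49 for all genes. For monocyte-like cells they were −0.34 and −0.46 against −0.20, and for erythroid progenitor-like cells −0.25 and −0.01 against −0.17. Over all classes the lists gave 5 higher and 100 lower calls, and after rescaling 14 and 38. Of all genes, 1.63% to 6.4% were higher and 13.8% to 42.0% lower by class. After rescaling these shares were 7.44% to 12.1% and 6.72% to 18.4%.

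Several list genes passed 2-fold on the neutrophil path, each in the lower direction. *Pmaip1*, which encodes the apoptosis protein NOXA, stood at 13.7 CPM in Ctrl and 2.57 CPM in cKO mNeu-like cells, from 61 and 22 UMIs, a log2 ratio of −2.42. *Bbc3*, a member that also encodes an apoptosis protein, gave −0.23 there without passing 1.5-fold, and the difference between the genes was not tested. *Npm1* was lower by −1.55 (−1.72 to −1.38) at the imNeu-like stage and by −1.68 (−1.89 to −1.47) at the mNeu-like stage, the classes in which *Trp53* was lower past 1.5-fold and in which many markers of other cells were lower. In imNeu-like cells the others were the checkpoint kinase genes *Atr*, *Chek1* and *Chek2*, with *Trp53bp1*, *Rrp1b*, *Pidd1*, *Aen*, *Sesn1*, *Gtse1*, *Psrc1*, *Dcxr* and *Ptp4a3*. In mNeu-like cells they were *Ppm1d*, *Atr*, *Trp53bp1*, *Sirt1*, *Pidd1*, *Ei24*, *Dcxr*, *Ptp4a3* and *Fdxr*. *Atr* and *Ddit4* passed 2-fold in PreNeu-like cells and *Ppp1r13l* in HSC/MPP-like cells, where the intervals of *Ddit4* (13 and 7 UMIs) and *Ppp1r13l* (19 and 3 UMIs) included 0.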

How the data were processed

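Single-cell 3′ libraries of marrow mixed with c-Kit+ cells from Ctrl and cKO mice were made on the BMKMANU DG1000 platform. The authors processed the reads with Cell Ranger 5.0.0 on mm10, per the labels, and deposited UMI counts per gene and barcode for each library, with no normalization. Depth was 71527701 UMIs in Ctrl and 64393950 in cKO. Barcodes were filtered to 200 to 9000 genes and a mitochondrial share of no more than 30%. The methods used the same limits and removed doublets, whereas none were removed here. Cells of at least 500 UMIs were scored by a multinomial likelihood against profiles built from up to 100 seed cells per class and library over fixed marker genes, and were assigned where the best class led by 5 natural log units and 3 own markers were detected. Raw counts were summed by class and library. CPM carry exact Poisson intervals and ratios exact binomial intervals, at 95%, for counting error only. With 1 library per group no test was run, and a gene was called past 1.5-fold (2-fold between classes) with at least 20 UMIs over both libraries. A level of 0 is given with the value that 3 UMIs would have. The named genes were the 8 members, their 3 most similar genes, list genes past 2-fold and the list genes with most UMIs, and others are named as chosen after their values were seen. The members and lists were chosen with earlier results of these data known. Alternatives were median-of-ratios scaling, a denominator without mitochondrial, ribosomal, hemoglobin and immunoglobulin genes, cells of at least 1000 UMIs, at most 10% mitochondrial UMIs, a mean of per-cell proportions, a stricter gate, other UMI minimums and thinning. The log2 ratios and their intervals were tested on counts simulated from the sums of ProNeu-like and mNeu-like cells. The gate was not tested on simulated data. Python 3.11.15, numpy 2.4.6, scipy 1.17.1, pandas 2.3.3 and matplotlib 3.10.9 were used.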

Additional observations from a re-analysis of the deposited data

Results flagged for a closer look

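*Cdkn1a* was picked out because its cKO against Ctrl ratio had opposite signs in different cell classes, each with an interval that did not include 0. The log2 ratio was 0.64 in PreNeu-like cells and 1.72 in erythroid progenitor-like cells, and −1.44 in imNeu-like cells. With 1 library per group, the difference between these classes was not tested. The imNeu-like value rests on 16 and 10 UMIs, and the erythroid progenitor-like value was 0.41 (−0.84 to 1.56) without 1 cKO cell and 1.21 (−0.16 to 2.55) without the cell with most *Cdkn1a* UMIs in each library.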

How the results depend on the processing

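Scaling by the median of gene ratios left 4 pairs of member and class lower past 1.5-fold, all among the 10 found with CPM, and moved the median log2 ratio over all pairs from −0.30 to −0.032. For the regulator and target lists it gave 14 higher and 38 lower calls in place of 5 and 100. With this scaling 7.44% to 12.1% of all genes were higher by class and 6.72% to 18.4% lower. The lists gave 11 higher calls by a mean of per-cell proportions, 16 with a minimum of 1 UMI in each library and 1 with a minimum of 50 UMIs, at which 2 member pairs stayed higher. Of 764 single ratios recomputed under an alternative, 697 stayed inside their interval, 63 left it, and 4 that had been past 1.5-fold changed sign. A change of sign in a smaller ratio was not counted as such. For *Trp53* in PreNeu-like cells, for example, median-of-ratios scaling gave 0.06 in place of −0.30. Thinning to 1000 UMIs per cell moved 38 of 71 and turned 2, median-of-ratios scaling moved 18 of 45, a mean of per-cell proportions moved 6 of 130 and turned 2, and leaving out the deepest 5% of cells moved 1 of 44. Those 4 were *Bbc3* in dividing against non-dividing HSC/MPP-like cells of Ctrl when thinned (1.09), *Cdkn1a* (0.17) and *Bbc3* (0.49) in dividing against non-dividing erythroid progenitor-like cells of Ctrl by a mean of per-cell proportions, and *Trp53* in cKO PreNeu-like cells with against without *Cdkn1a* when thinned (−0.18). The cause was not tested. Thinning discards most UMIs, and thinned values were set against the intervals of the full counts, so a move under thinning was not told apart from counting error. Leaving out the deepest 5% of cells, or the cell with most UMIs of a gene, was chosen after seeing the data. Without the deepest 5%, the erythroid progenitor-like log2 ratios were 0.40 for *Cdkn1a*, 0.69 for *Phlda3* and 0.34 for *Zmat3*. No paired analysis was possible because there is 1 library per group.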

Other observations

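In T/NK-like cells, too few in cKO to be compared (21 cells, 120488 UMIs), 8 *Bbc3* UMIs were counted in 8 cells, or 66.4 CPM (28.7 to 131). The 125 Ctrl T/NK-like cells (428042 UMIs) held 0, where 3 UMIs would be 7.01 CPM. This value was chosen after the values were seen.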
